A study of Mus musculus with 6 samples.

Results

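The genes of the mitochondrial protein import machinery were examined in RNA-seq of mouse quadriceps muscle, in 3 miDrp1KO and 3 control mice. Import genes were taken by symbol: Timm or Tomm followed by a digit, and Samm50, Mtx1, Mtx2, Mtx3, Dnajc15, Dnajc19, Pam16, Grpel1, Grpel2, Pmpca and Pmpcb, without pseudogenes. This gave 37 of the 27179 genes listed, among them the antisense RNA Tomm6os. Of these, 35 passed the filter on low counts. Tomm20l and Timm8a2, paralogs of a receptor and of a small chaperone, did not, with at most 0.200 and 0.0999 CPM (counts scaled to a fixed library size, per 1e6 counts) in any library.

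Dnm1l encodes Drp1, the GTPase that divides mitochondria. The miDrp1KO mice carried floxed Dnm1l and HSA-MerCreMer, a Cre recombinase driven by the human skeletal actin (ACTA1) promoter and active only after tamoxifen, on a C57BL/6J background. The control mice are labelled Control f/f, and the methods give them as flox/+ or flox/flox. According to the methods both groups received tamoxifen at 3 months of age, at 50 mg per kg of body weight on each of 4 days. The results of the paper place the sequenced muscle at 3 weeks after deletion. All mice ate normal chow. Cre is directed to muscle fibres, while whole quadriceps with all its cell types was sequenced. For Dnm1l itself, the controls gave 156 (B), 114 (C) and 140 (D) CPM, and the miDrp1KO mice gave 70.6 (A), 81.3 (E) and 66.2 (F) CPM. Values per library follow this order throughout. It differed by a log2 fold change of -0.91 ± 0.18 (SE) in edgeR (adjusted p = 0.362) and by -0.90 in DESeq2 (adjusted p = 0.00382), so the call depended on the tool.

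Nearly all mitochondrial proteins are made in the cytosol and cross the membranes through these complexes. Precursors bind receptors of the TOM complex on the outer membrane and pass its pore. Beta-barrel proteins are then inserted by the SAM complex, carriers are escorted by small TIM chaperones to the TIM22 complex, and proteins with a presequence pass the TIM23 complex, are pulled in by the ATP-driven motor around the matrix Hsp70 Hspa9, and lose the presequence to the protease Pmpca/Pmpcb. Muscle fibres, which are rich in mitochondria, depend on this route for their respiratory chain.

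RefSeq promoters (GRCm38.p6) were matched for 33 of the 37 import genes, and the 250 bases before the start were searched on both strands for short words. Some genes had more than 1 window, and of the 35 windows 28 had bases after the start that also stand near the start of an annotated transcript of the gene, the 4 shown among them. For the others the start was not matched. Tomm40l, Grpel2, Tomm7 and Timm21 were not matched. The ETS word CCGGAAGT stood before 7 of the 33 (21.2%: Mtx2, Mtx3, Pmpcb, Timm23, Timm29, Timm8a2 and Tomm70a), while it stood before 3.23% of all 27025 genes with such a window and 5.78% of the 12281 tested genes with one. The word CCAAT was found in 10 of 33 (30.3%, 37.5% of all genes). The NRF1 word GCGCATGCG was found for Timm13 alone and the ERR word TCAAGGTCA for Timm8b alone. They stood before 2.98% and 0.285% of the tested genes with a window. The words AAGATGGCG (YY1), TGACGTCA (CRE) and TGATGNAA (CARE) were found in none of the 33, and before 1.19%, 2.67% and 2.58% of those tested genes. These matches describe letters and not bound sites. Of the 6 tested members that carry the ETS word, Timm29 and Tomm70a were lower in every miDrp1KO library than in every control library, as 10.3% of all tested genes were. In Mtx2, Mtx3, Pmpcb and Timm23 the groups overlapped, with log2 fold changes of 0.42, -0.13, -0.05 and -0.07. The windows of Timm29 and Tomm70a are shown with the word in capitals, 213 to 206 and 80 to 73 bases before the start, Timm29 holding it on the opposite strand. The windows of Pmpca and Tomm5, the 2 import genes with the smallest p, are shown beside them because they hold neither this exact word nor CCAAT. Only exact words were searched. Pmpca holds ccggaagc and gcggaagt and Tomm5 holds caggaagt, each 1 letter away from the ETS word. All are written 5′ to 3′ on the strand of the gene.
Timm29, chr9:21592472-21592721, plus strand: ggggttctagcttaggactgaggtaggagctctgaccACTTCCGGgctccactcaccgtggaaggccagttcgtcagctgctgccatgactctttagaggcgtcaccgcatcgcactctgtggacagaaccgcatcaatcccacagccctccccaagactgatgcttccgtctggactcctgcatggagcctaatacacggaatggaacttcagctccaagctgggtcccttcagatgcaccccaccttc
Tomm70a, chr16:57121464-57121713, plus strand: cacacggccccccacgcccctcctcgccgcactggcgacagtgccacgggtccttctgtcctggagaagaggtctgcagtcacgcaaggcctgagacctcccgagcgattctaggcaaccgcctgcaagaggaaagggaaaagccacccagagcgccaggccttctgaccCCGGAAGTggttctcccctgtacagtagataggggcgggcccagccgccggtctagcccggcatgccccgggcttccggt
Pmpca, chr2:26389098-26389347, plus strand: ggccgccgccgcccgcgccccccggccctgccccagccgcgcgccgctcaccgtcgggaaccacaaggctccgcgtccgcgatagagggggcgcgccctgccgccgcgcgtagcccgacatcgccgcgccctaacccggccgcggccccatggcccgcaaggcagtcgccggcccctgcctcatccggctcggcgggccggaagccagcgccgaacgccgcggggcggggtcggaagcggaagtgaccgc
Tomm5, chr4:45108114-45108363, minus strand: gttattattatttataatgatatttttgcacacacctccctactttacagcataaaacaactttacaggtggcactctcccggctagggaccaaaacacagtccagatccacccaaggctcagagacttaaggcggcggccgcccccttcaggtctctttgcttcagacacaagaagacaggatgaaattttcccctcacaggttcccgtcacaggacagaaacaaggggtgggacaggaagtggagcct

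No import gene passed the test across all genes. With edgeR's quasi-likelihood test, 0 of 35 had an adjusted p under 0.05, against 2 of all 16483 genes tested (0.0121%). At an unadjusted p under 0.05, 6 import genes were higher in miDrp1KO, where 4.68% of all genes were, and 3 were lower, where 6.22% were. Together, 25.7% of the import genes (9) and 10.9% of all genes (1796) had an unadjusted p under 0.05. With DESeq2, 0 of the 15 import genes that received an adjusted p were called (2.34% of all 4018 such genes were), and 8 of the 35 had an unadjusted p under 0.05 (10.4% of all genes did). In limma voom 0 were called, against 1 of all 16483 genes. The 3 libraries of each group did not overlap for 12 import genes, 6 higher (background 7.67%) and 6 lower (background 10.3%). With upper quartile in place of TMM scaling, a choice that moved the median of all genes to 0.11 on the log2 scale, 6 were apart and higher (10.9% of all genes) and 3 apart and lower (6.90% of all genes). The median log2 fold change was 0.10 over the import genes and 0.02 over all tested genes, with 20 import genes above 0 and 15 below. The plot of fold changes by role shows these values, and at an unadjusted p under 0.05 no role held genes of both directions. The counts depended on single libraries, as did those over all genes. Without control D, 2 import genes were higher (3.21% of all genes) and 1 lower (2.15% of all genes) at an unadjusted p under 0.05. Without miDrp1KO E, 1 was lower (3.91% of all genes), and without miDrp1KO A, 9 were higher (8.55% of all genes).

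**Figure D1:**
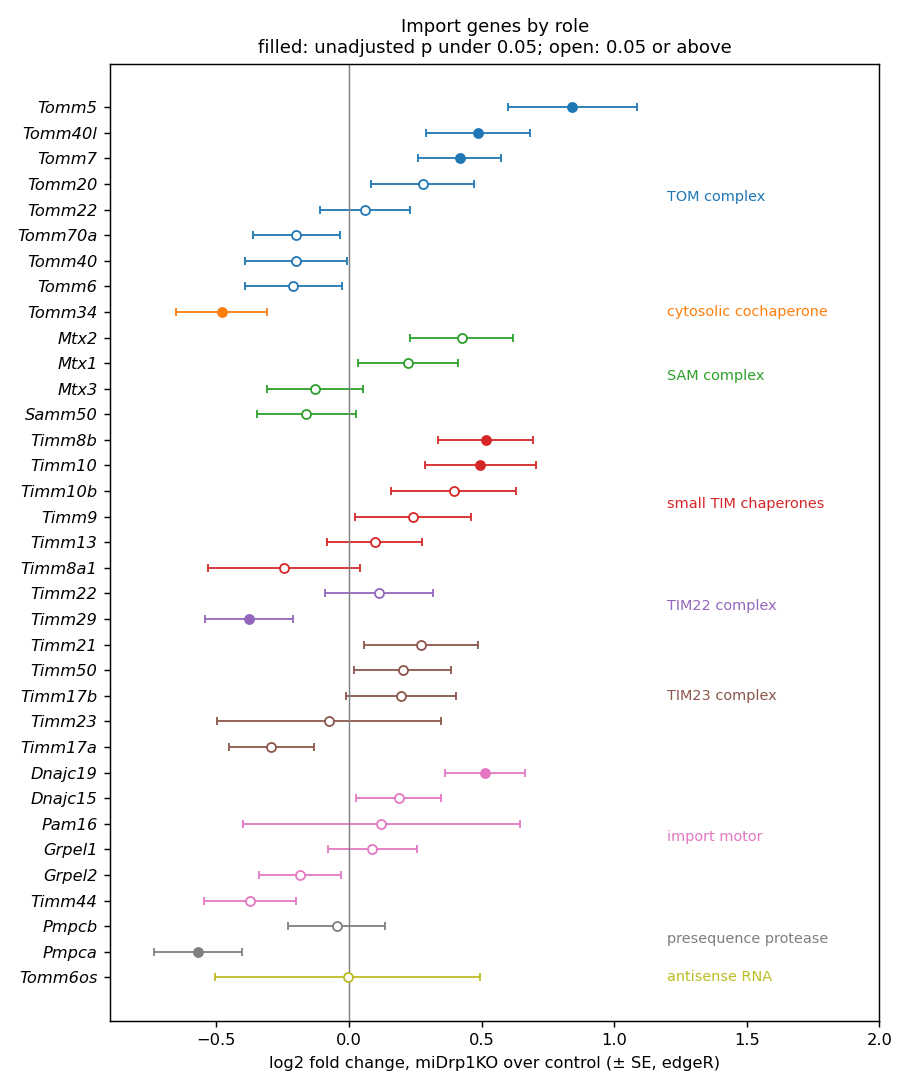
Log2 fold change of each of the 35 tested import genes (miDrp1KO over control, points) with its standard error (bars), grouped by role, 3 libraries per group. Filled points have an unadjusted p under 0.05, and values run from -0.57 for Pmpca to 0.84 for Tomm5.

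Library totals ran from 13989588 to 62042255 counts. Ribosomal RNA genes took 3.36 to 15.6% of the counts in control and 1.48 to 24.4% in miDrp1KO libraries. The import genes summed to 1214 to 1284 CPM in control libraries and to 1245, 1161 and 1375 CPM in miDrp1KO A, E and F, so the groups overlapped. Over the import genes, the median deviation from the mean of all 6 libraries on the log2 scale was 0.27 in miDrp1KO F and from -0.12 to 0.00 in the other libraries, and the median log2 fold change of the import genes was -0.02 without F, 0.21 without A and 0.21 without E. Summed skeletal muscle markers (7 genes, Acta1 and Ckm among them) were at 217100 to 270700 CPM in control libraries. In miDrp1KO libraries they were at 92650 to 201800 CPM, without overlap. Of the 7, 2 were lower at an unadjusted p under 0.05 (6.22% of all genes were). Adipose markers (5 genes) were at 179 to 380 CPM and 67.1 to 172 CPM, also without overlap, with 3 of 5 lower (6.22% of all genes). The part of either in the results was not tested. The ranges of slow fibre, red blood cell, nerve, macrophage, fibroblast and endothelial markers overlapped between the groups. However, 1 of 4 macrophage markers was higher at an unadjusted p under 0.05 (4.68% of all genes were). The slow fibre sum was high in control B (442 CPM) and in miDrp1KO E and F (723 and 644 CPM). It was 52.8 to 85.2 CPM in the others. In whole muscle, fewer cells of a type and less RNA per cell cannot be told apart.

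At the outer membrane, 3 of 8 tested TOM genes were higher at an unadjusted p under 0.05 and none lower, against 4.68% and 6.22% of all genes, and 2 were higher and 1 lower after correction for length and GC content, against 3.83% and 8.13%. Tomm5, a small subunit of the complex, stood at 9.19, 13.2 and 8.65 CPM in the controls and at 17.7, 13.5 and 24.2 CPM in miDrp1KO A, E and F. The groups did not overlap, but control C and miDrp1KO E nearly met. Its log2 fold change was 0.84 ± 0.24 (SE), a 1.79-fold higher mean and the largest difference among the tested import genes (unadjusted p = 0.00536, adjusted p = 0.379 in edgeR). Tomm7, another small subunit, was at 32.3, 39.1 and 34.0 CPM in control and 42.7, 47.7 and 50.2 CPM in miDrp1KO libraries, a log2 fold change of 0.42 ± 0.15 (adjusted p = 0.393 in edgeR). Every miDrp1KO library lay above every control library. Tomm40l, a paralog of the pore, was at 21, 16.3 and 18.3 CPM in control and 21.2, 23.3 and 33.4 CPM in miDrp1KO libraries, a log2 fold change of 0.49 ± 0.20 (0.29 without miDrp1KO F, adjusted p = 0.417 in edgeR with all libraries). The highest control library and miDrp1KO A were almost equal. Nr1i3 covers 45.5% of its exon bases on the opposite strand, and the strand setting of the counting is not given in the sources used here, so reads of Nr1i3 may be counted with it.

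The receptors held values on both sides of 0. Tomm70a, which receives carrier precursors from cytosolic chaperones, was at 125, 118 and 122 CPM in control and 117, 104 and 96.3 CPM in miDrp1KO libraries. The groups were apart by less than 1 CPM, and its log2 fold change of -0.20 ± 0.16 did not reach the threshold (unadjusted p = 0.249 in edgeR) and was -0.12 without miDrp1KO F. Tomm20, the presequence receptor, had a log2 fold change of 0.28 ± 0.19 and Tomm22, the central receptor, of 0.06 ± 0.17, both with overlapping groups. The pore Tomm40 was at 16.8 ± 2.07 CPM (SD, n = 3) in control and 14.7 ± 3.29 CPM in miDrp1KO muscle, with overlap. Per kilobase of exon, the highest control level of a TOM gene was that of the small subunit Tomm6, at 31.9 ± 6.4 CPM per kb (SD, n = 3), which did not differ beyond its spread from Tomm7 at 31.2 ± 3.15. Tomm6 was at 23.6, 21.7 and 31.4 CPM in control and 20.1, 21 and 25.5 CPM in miDrp1KO libraries, with overlap. The readthrough gene Gm21981 covers 81.7% of its exon bases on the same strand and Tomm6os 27.3% on the opposite one, so its reads are uncertain. Tomm6os itself held 0.292 to 0.768 CPM, with overlap. Tomm34, a cytosolic cochaperone, was at 10.9, 12.8 and 13.4 CPM in control and 9.53, 8.14 and 8.97 CPM in miDrp1KO libraries. These groups did not overlap (log2 fold change -0.48 ± 0.17, adjusted p = 0.392 in edgeR).

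**Figure D2:**
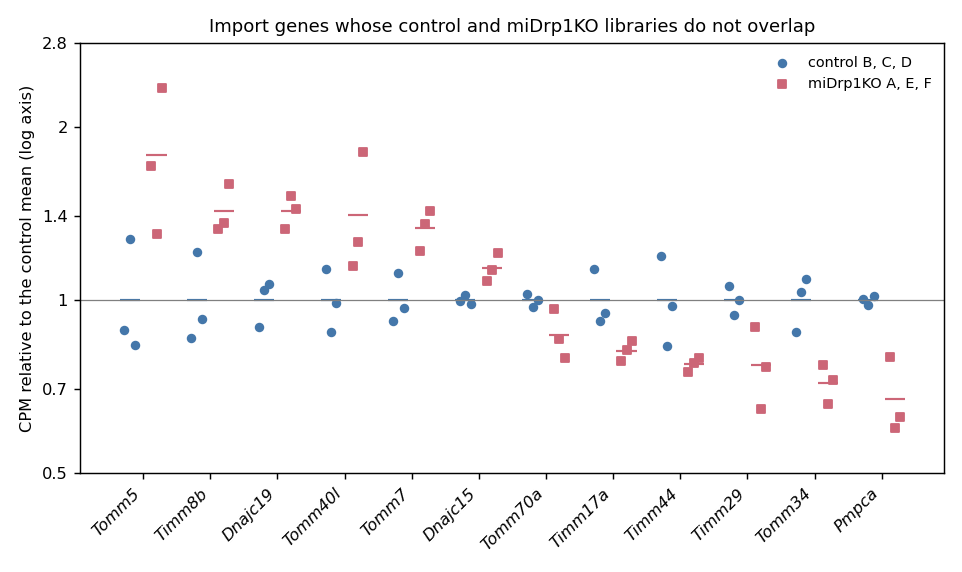
CPM of each library divided by the control mean of the gene (log axis), for the 12 import genes whose control (circles) and miDrp1KO libraries (squares) do not overlap. Short horizontal lines are group means, and 6 genes lie above and 6 below 1 in miDrp1KO.

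In the SAM complex 0 of 4 genes had an unadjusted p under 0.05 in edgeR (10.9% of all genes) and none had groups apart (18% of all genes). Samm50, the barrel that inserts other beta-barrel proteins, had the highest level per length of the group. It was at 73.8, 61.1 and 65.2 CPM in control and 52.2, 51.8 and 74.9 CPM in miDrp1KO libraries, so F alone of the miDrp1KO libraries exceeded every control. The metaxin Mtx2 came nearest the threshold, at 25.7, 20.9 and 18.1 CPM in control and 22.9, 34.7 and 29.0 CPM in miDrp1KO libraries (log2 fold change 0.42 ± 0.20, unadjusted p = 0.0519 in edgeR, 0.27 without miDrp1KO E and 0.25 with the slow fibre score as covariate). The other metaxins had log2 fold changes of 0.22 ± 0.19 (Mtx1) and -0.13 ± 0.18 (Mtx3).

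The small TIM chaperones shield hydrophobic precursors in the space between the membranes. Of 6 tested, 5 had a log2 fold change above 0, as did 8572 of all 16483 genes, and 2 were higher at an unadjusted p under 0.05 (4.68% of all genes). After length and GC correction 0 of the 6 had an unadjusted p under 0.05 in edgeR, and 0 an adjusted one. Of all genes, 3.83% were higher and 8.13% lower at that unadjusted threshold after the correction. Timm8b had the highest level per length of all import genes in control muscle (93.1 ± 17.5 CPM per kb, SD, n = 3), a value that overlapped that of Timm23 (80.1 ± 34.7) within their spread. It was at 41.4, 58.5 and 44.8 CPM in control and 64.2, 65.6 and 76.7 CPM in miDrp1KO libraries, without overlap, a log2 fold change of 0.51 ± 0.18 (adjusted p = 0.392 in edgeR). Nkapd1 covers 15.6% of its exon bases on the opposite strand. Timm10 was at 12.5, 9.77 and 11.7 CPM in control and 11.5, 17.8 and 18.7 CPM in miDrp1KO libraries. Here E and F were high and A lay within the control range (log2 fold change 0.49 ± 0.21, adjusted p = 0.432 in edgeR). The slow fibre markers were high in E and F too, and also in control B. With their score as a covariate the value for Timm10 was 0.26. The part of fibre type in this was not tested. Timm9, the partner of Timm10, had a log2 fold change of 0.24 ± 0.22 (0.13 without miDrp1KO F and 0.40 without control D), Timm10b of 0.40 ± 0.24 and Timm13 of 0.10 ± 0.18, all with overlap. Timm8a1 was the exception in direction, at -0.25 ± 0.29, from 1.96 to 3.72 CPM over the libraries.

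Of the TIM22 complex, Timm29 was at 50.1, 44.5 and 47.3 CPM in control and 42.5, 30.6 and 36.1 CPM in miDrp1KO libraries. Every miDrp1KO library lay below the controls, and the log2 fold change was -0.38 ± 0.17 (unadjusted p = 0.043, adjusted p = 0.445 in edgeR). Timm22, the channel itself, had overlapping groups and a log2 fold change of 0.11 ± 0.20.

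In the TIM23 complex 0 of 5 genes had an unadjusted p under 0.05 in edgeR (10.9% of all genes). Timm23, the presequence channel, was at 70.0, 141 and 70.8 CPM in control and 127, 48.5 and 91.5 CPM in miDrp1KO libraries. Control C and miDrp1KO A were high, and the spread within each group (SD 40.8 and 39.6 CPM) was far larger than the difference of their means. Pam16, which regulates the J proteins of the motor, was also highest in these libraries, at 5.83 CPM in control C and 4.13 CPM in miDrp1KO A, and from 1.52 to 3.41 CPM in the others. These libraries also stood apart in the cytosolic chaperone Hspa8, a partner chosen here after its values were seen, at 231 CPM in control C and 213 CPM in miDrp1KO A and 730 to 1029 CPM in the others. Timm17a, a channel partner of Timm23, was at 102, 82.7 and 85.7 CPM in control and 70.6, 73.7 and 76.4 CPM in miDrp1KO libraries, without overlap (log2 fold change -0.29 ± 0.16, unadjusted p = 0.0975 in edgeR, and -0.175 without control B). Its alternative Timm17b was at 14.6 ± 2.23 CPM (SD, n = 3) and 16.8 ± 4.35 CPM, and Timm50, the receptor, and Timm21, which links the complex to the respiratory chain, had log2 fold changes of 0.20 ± 0.18 and 0.27 ± 0.21, all with overlap.

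Of the 6 motor genes, 1 had an unadjusted p under 0.05 (10.9% of all genes) and 3 had groups apart (18% of all genes). Dnajc19, a J protein that stimulates Hspa9, was at 29.2, 33.9 and 34.7 CPM in control and 43.3, 49.3 and 47.0 CPM in miDrp1KO libraries. The groups were well apart, a 1.43-fold higher mean (log2 fold change 0.51 ± 0.15, unadjusted p = 0.00605, adjusted p = 0.379 in edgeR, adjusted p = 0.0945 in DESeq2). A pseudogene listed as its copy, Dnajc19-ps, was also higher in every miDrp1KO library (25.1 ± 4.64 against 35.2 ± 5.86 CPM, SD, n = 3), and how reads on near-identical copies were divided is not given in the sources used here. Dnajc15, the other J protein, was at 108, 111 and 107 CPM in control and 117, 123 and 131 CPM in miDrp1KO libraries. It lay apart at a log2 fold change of only 0.19 ± 0.16 (unadjusted p = 0.265 in edgeR). Timm44, which tethers the motor to the channel, went the other way, at 82.8, 57.6 and 67.6 CPM in control and 51.9, 53.9 and 54.9 CPM in miDrp1KO libraries (log2 fold change -0.37 ± 0.17, unadjusted p = 0.0537 in edgeR, and -0.21 without control B). Grpel1 and Grpel2, nucleotide exchange factors of Hspa9, had log2 fold changes of 0.09 ± 0.17 and -0.18 ± 0.16 with overlap, the latter -0.11 without miDrp1KO E.

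The presequence protease is a dimer of Pmpca and Pmpcb. Pmpca, the alpha subunit, was at 67.3, 65.7 and 68.2 CPM in control and 53.5, 40.2 and 41.9 CPM in miDrp1KO libraries. The controls lay close together and every miDrp1KO library was below them, with a mean 32.6% lower in the fit (log2 fold change -0.57 ± 0.17, unadjusted p = 0.0053, adjusted p = 0.379 in edgeR). Its adjusted p in DESeq2 was 0.0788, the smallest among the 15 import genes given one. Tomm5 had a smaller unadjusted p there (0.00203 against 0.00298) but was given no adjusted p. Inpp5e overlaps 25% of the Pmpca exon bases on the opposite strand. Pmpcb, the catalytic subunit, had the higher level per length, 55.7 ± 8.0 against 19.2 ± 0.36 CPM per kb for Pmpca in control muscle (SD, n = 3). It was at 101, 75.8 and 93.2 CPM in control and 79.6, 80.2 and 102 CPM in miDrp1KO libraries, with overlap (log2 fold change -0.05 ± 0.18). The difference between the subunits' changes was not tested.

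Ratios of read counts between import genes of related role were taken within each library, where scaling between libraries does not enter. In 4 of the 5 pairs the groups did not overlap. Each of these 4 holds a gene whose own groups were apart (Tomm40l, Timm8b, Dnajc15, Dnajc19 or Timm17a). The count is therefore not separate from the values above. The share among other pairs of genes was not computed, and 18% of all tested genes were apart singly. Tomm40 to Tomm40l was 0.908, 0.915 and 0.902 in the controls and 0.630, 0.526 and 0.551 in miDrp1KO A, E and F, a log2 difference of -0.68. The controls were nearly identical. On the opposite strand, Gm20512 covers 15.4% of the exon bases of Tomm40 and Nr1i3 45.5% of those of Tomm40l. Reads of these genes may enter the ratio. Timm8a1 to Timm8b was 0.0692, 0.0641 and 0.0620 in control and 0.0390, 0.0301 and 0.0447 in miDrp1KO libraries, a log2 difference of -0.80. Timm8a1 held only 51 to 166 counts in a library. The ratios carry no correction for length and GC content. With that correction the log2 fold changes in edgeR were -0.34 for Timm8a1 and 0.21 for Timm8b. Dnajc15 to Dnajc19 was 3.70, 3.28 and 3.08 in control and 2.71, 2.49 and 2.8 in miDrp1KO libraries, a log2 difference of -0.33. Reads shared with Dnajc19-ps may enter this ratio. In each of these pairs the second gene took a larger share in miDrp1KO than in control libraries, though Dnajc15 kept more reads than Dnajc19 in both groups. Timm17a to Timm17b was 8.42, 5.15 and 5.40 in control and 5.12, 4.95 and 3.50 in miDrp1KO libraries, a log2 difference of -0.47, with control C and miDrp1KO A almost touching. That difference was -0.24 without control B (two-sided exact permutation p = 0.4) and -0.29 without miDrp1KO F (exact permutation p = 0.5). Grpel1 to Grpel2 was 2.31, 2.14 and 2.09 in control and 2.02, 2.89 and 3.03 in miDrp1KO libraries, which overlapped (log2 difference 0.26, two-sided exact permutation p = 0.4), and the difference was 0.445 without miDrp1KO A and 0.15 without F. Over the 20 assignments of 3 against 3 mice the smallest exact permutation p is 0.1, which the other 4 pairs reached, or 0.125 after Benjamini-Hochberg adjustment over the 5 pairs.

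**Figure D3:**
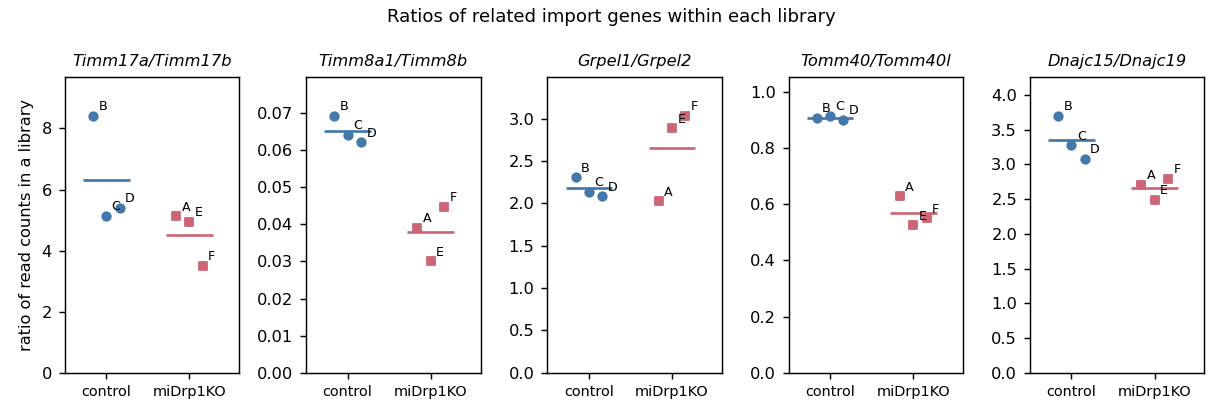
Ratio of the read counts of related import genes in each library (linear axes from 0, a separate scale for each pair), with the library letter beside each point and group means as lines. The control libraries of Tomm40/Tomm40l lie between 0.902 and 0.915, and the miDrp1KO libraries between 0.526 and 0.630.

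Import genes of different exon length differed in median, without a steady order. The 5 import genes under 1 kb had a median log2 fold change of 0.49, and the 611 other tested genes of that length a median of 0.23. The 10 import genes of 1 to 2 kb had a median of 0.01 (5 above 0 and 5 below) and the 10 of 2 to 4 kb a median of 0.15 (7 above and 3 below), so the longer of these classes was the higher, while the medians of the other tested genes of these lengths were 0.05 and -0.02. The 9 import genes over 4 kb had a median of -0.13, and the 5846 others of -0.02. Across the 34 import genes with a length, Pearson's r of log2 length and log2 fold change was -0.27, and over the 14833 tested genes with a length it was -0.10, which describes genes of the same 6 libraries and not independent replicates. With length and GC content corrected in each library, an alternative chosen after seeing the data, 3 import genes were higher (background 3.83%) and 5 lower (background 8.13%) at an unadjusted p under 0.05, and 0 were called in edgeR at an adjusted p under 0.05. The log2 fold changes of Timm8b, Tomm7 and Timm10 became 0.21, 0.24 and 0.29, and their unadjusted p 0.243, 0.114 and 0.142 in edgeR. Tomm5 was at 0.63, Dnajc19 at 0.41, Tomm40l at 0.51, Pmpca at -0.57, Tomm34 at -0.50 and Timm29 at -0.37, all still at an unadjusted p under 0.05. Timm44 at -0.42 and Tomm6, itself under 1 kb, at -0.42 moved away from 0 and came under that threshold.

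**Figure D4:**
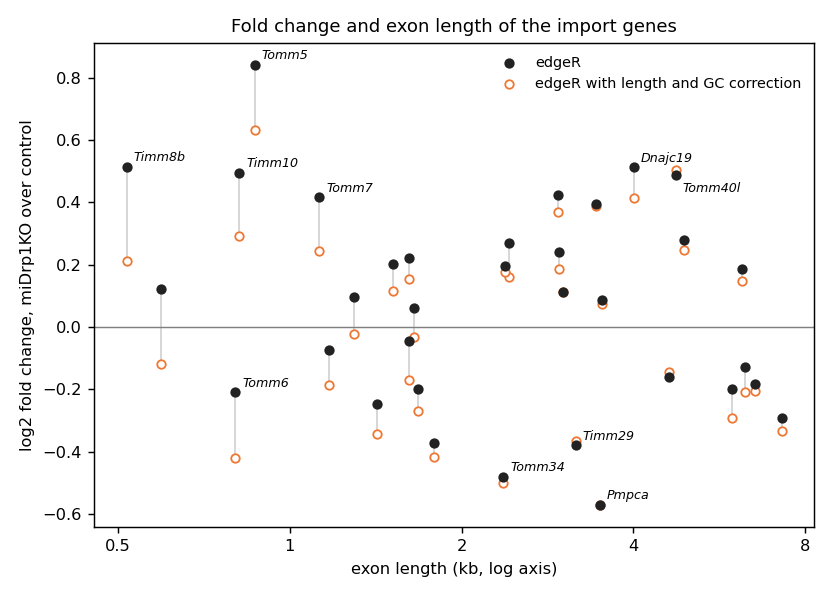
Log2 fold change (miDrp1KO over control) of the 34 import genes with a known exon length, against that length in kb (log axis). Filled points are edgeR values and open points those after length and GC correction, joined by a line for each gene, and Timm8b, Timm10 and Tomm7 move toward 0 while Tomm6 moves away from it.

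Of the other genes of the pathway (23 partners), 0 had an adjusted p under 0.05 in edgeR, and at an unadjusted p under 0.05, 2 were higher (4.68% of all genes) and 3 lower (6.22% of all genes). Their median log2 fold change was -0.11, and 0.02 without miDrp1KO A and -0.26 without control C. Immp2l, a subunit of the inner membrane peptidase, was at 5.11, 3.35 and 3.48 CPM in control and 6.27, 8.36 and 8.11 CPM in miDrp1KO libraries (log2 fold change 0.93 ± 0.23, adjusted p = 0.362 in edgeR). Romo1, a small TIM23 subunit, was at 25.8, 30.0 and 27.1 CPM in control and 36.0, 34.0 and 47.8 CPM in miDrp1KO libraries (log2 fold change 0.51 ± 0.17, and 0.28 after length and GC correction). Both had miDrp1KO libraries above all controls.

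The partners lower at an unadjusted p under 0.05 included 2 chaperones. Hspd1, the matrix chaperonin that folds imported proteins, was at 167, 137 and 153 CPM in control and 118, 102 and 102 CPM in miDrp1KO libraries (log2 fold change -0.51 ± 0.17, adjusted p = 0.382 in edgeR). Hsp90ab1, a cytosolic chaperone that hands precursors to Tomm70a, was at 899, 873 and 1082 CPM in control and 759, 528 and 557 CPM in miDrp1KO libraries (log2 fold change -0.63 ± 0.23, adjusted p = 0.392 in edgeR). Neither overlapped. Gfer, the oxidase that recharges the disulfide relay, was at 59.0, 51.2 and 55.4 CPM in control and 48.4, 37.3 and 37.1 CPM in miDrp1KO libraries (log2 fold change -0.43 ± 0.17). Mipep, a peptidase that trims after Pmpca/Pmpcb, was at 34.8, 36.9 and 38.8 CPM in control and 30.5, 27.8 and 34.4 CPM in miDrp1KO libraries, apart by less than 1 CPM. Hspa9, the core of the motor, was at 701, 389 and 525 CPM in control and 414, 477 and 391 CPM in miDrp1KO libraries, and the groups overlapped (log2 fold change -0.33 ± 0.24, and -0.08 without control B).

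For comparison, 37 genes were taken by symbol alone as nuclear complex I subunits (Ndufa, b, c, s or v followed by a digit). Their proteins reach their place through this machinery. Of these, 10 were higher and 0 lower at an unadjusted p under 0.05, where 4.68% of all tested genes were higher and 6.22% lower. Their median log2 fold change was 0.36. After length and GC correction 5 were higher and 2 lower, with a median of 0.13, where 3.83% of all genes were higher and 8.13% lower. Of 77 tested mitochondrial ribosomal proteins, 8 were higher and 0 lower, with a median of 0.14, and 3 were higher and 1 lower after correction, with a median of 0.02. In both lists 0 genes had an adjusted p under 0.05 in edgeR. The import genes had 6 higher and 3 lower, and 3 higher and 5 lower after correction. The difference between the lists was not tested.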

How the data were processed

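The authors deposited raw read counts per gene, 1 file per library, for quadriceps of 3 control and 3 miDrp1KO mice. According to the methods, total RNA (integrity number over 7) was depleted of ribosomal RNA with a stranded kit, sequenced in 2 pools, examined with FastQC, and then both aligned (GRCm38) and counted (GRCm38 version 97) by Rsubread 2.4.2. Which library was in which pool, and the handling of overlapping genes, are not given in the sources used here. Groups follow the genotype label. The labels do not say which replicates were handled together, so p-values measure the spread between these libraries.

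The quasi-likelihood test of edgeR 4.0.16 was run in R 4.3.3 on TMM-scaled counts with a robust fit, after filterByExpr with the genotype as group. P-values were adjusted by the Benjamini-Hochberg method over the 16483 genes kept, and the threshold was 0.05. CPM use TMM library sizes, and ratios add 0.5 to each count. Exon length and GC content came from a GENCODE annotation of GRCm38 (90.0% of tested genes), promoters from RefSeq. In the length and GC correction each library was fitted with natural splines of 5 degrees of freedom. Library totals ran from 13989588 to 62042255 counts, and the biological coefficient of variation was 0.252. The script was tested on simulated data. Alternatives were DESeq2 1.42.0, limma 3.58.1 (voom), RLE and upper quartile scaling, no filter, the ribosomal RNA share (28 genes) or the slow fibre score (mean log2 CPM of 7 markers) as a covariate, and leaving out each replicate.

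The import genes, partners and markers were chosen with earlier results of these data known. Values per library are given for members with an unadjusted p under 0.05 or groups that do not overlap and for the highest level per length in each role. Mtx2, Hspa9 and Hspa8 were added after their values were seen. Pam16 also stands outside this rule.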

Additional observations from a re-analysis of the deposited data

How the results depend on the processing

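In edgeR, DESeq2, limma voom and every other alternative, 0 import genes had an adjusted p under 0.05. The smallest adjusted p of an import gene was 0.0788 in DESeq2 (15 import genes given one), 0.0837 without miDrp1KO A and from 0.223 to 0.877 in the others. Over all genes, 94 were called by DESeq2, 1 by limma voom, 8 without the filter on low counts, 1 when the share of ribosomal RNA was a covariate and 4 when the score of slow fibre markers was, and from 1 to 7 when a replicate was left out, against 2 in edgeR. The Dnm1l difference of -0.90 was called in DESeq2. At an unadjusted p under 0.05, from 2 to 9 import genes were higher and from 1 to 3 lower without 1 replicate (the 9 without miDrp1KO A, where 8.55% of all genes were higher). After length and GC correction 3 were higher and 5 lower, against 3.83% and 8.13% of all genes. The partner median ran from -0.257 to 0.0189 without 1 replicate. The import gene median was -0.02 when the share of ribosomal RNA was a covariate, -0.01 after length and GC correction and 0.19 with upper quartile scaling.

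Genes near 0 changed sign. When the share of ribosomal RNA was a covariate, Timm22 was at -0.0224, Tomm22 at -0.0226 and Pam16 at -0.11, and with the slow fibre covariate Timm23 was at 0.28. Upper quartile scaling gave 0.0126 for Timm23, 0.0851 for Tomm6os and 0.046 for Pmpcb. Tomm6os was at 0.02 in DESeq2, 0.00475 with RLE scaling and 0.0149 without the filter. Length and GC correction gave -0.0228 for Timm13, -0.0332 for Tomm22 and -0.12 for Pam16. Without 1 replicate in turn the log2 fold change ran for Timm13 from -0.0531 to 0.21, for Timm22 from -0.12 to 0.26, for Mtx3 from -0.22 to 0.0611, for Timm23 from -0.40 to 0.32, for Tomm22 from -0.0535 to 0.14, for Pam16 from -0.18 to 0.89, for Tomm6os from -0.26 to 0.29, for Pmpcb from -0.18 to 0.0659, for Grpel1 from -0.0203 to 0.23 and for Timm17b from -0.0119 to 0.34. Several that kept their sign moved by over 1.5 times: Tomm40 ran from -0.38 to -0.08, Samm50 from -0.34 to -0.05, Timm8a1 from -0.46 to -0.06, Tomm6 from -0.34 to -0.01, Mtx1 from 0.06 to 0.35, Timm50 from 0.07 to 0.32 and Timm21 from 0.16 to 0.47, and Timm10b was at 0.12 and Tomm20 at 0.15 without miDrp1KO F. With the slow fibre covariate Timm21 was at 0.04 and Mtx1 at 0.10. The cause was not tested. No paired or blocked analysis was run. Each letter names a single library (B, C and D against A, E and F), and the labels do not say which libraries were handled together. With 3 libraries per group the exact permutation test cannot go below 0.1. Without control D, the deepest library, 3 import genes had an unadjusted p under 0.05 in edgeR, as did 951 of all 17750 genes tested.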
